A study of Rattus norvegicus with 8 samples.

Results

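Transcripts of the trophic factors brain-derived neurotrophic factor (Bdnf) and vascular endothelial growth factor A (Vegfa), and of the BDNF receptor TrkB (Ntrk2), were followed in the hippocampus of old rats given a vector for insulin-like growth factor I (IGF-I). The 3 genes are the rows ENSRNOG00000047466 (Bdnf), ENSRNOG00000018839 (Ntrk2) and ENSRNOG00000019598 (Vegfa) of the 26405 Ensembl gene IDs in the count table. All 3 passed the filter on low counts, which left 14522 IDs for the test. The choice rested on gene identity, but was made with earlier results of these data known. The symbols were assigned to these IDs for this work, because neither the count table nor the RefSeq gene table used here pairs IDs with names.

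The samples were right hippocampi of 8 female Sprague-Dawley rats aged 28 months, 1 library per rat. In 4 rats, the IGF1 group, an adenoviral vector carrying the rat IGF-I gene had been injected into the cerebral ventricles. The other 4, the DsRed group, had received by the same route an adenoviral vector without it, which the labels call an empty DsRed vector after a red fluorescent protein. Every rat had therefore received an adenoviral vector, and the labels used here give no uninjected group, vector dose, interval after injection or promoter. The comparison asks which hippocampal transcripts differ between aged rats whose vector carried the IGF-I gene and those whose vector did not.

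BDNF is a secreted neurotrophin whose transcription in neurons rises with their activity. It binds TrkB, a receptor tyrosine kinase of neurons, of which astrocytes carry mainly a truncated form that lacks the kinase, and this signal is needed for lasting synaptic potentiation in the hippocampus. VEGF-A is a secreted factor that acts on endothelial receptors to promote vessel growth and permeability, is induced by low oxygen, and also acts on neural precursors. IGF-I is known to act on neurons, glia and vessels through its own receptor tyrosine kinase.

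Each row sums all transcripts of its gene, which matters because Bdnf and Vegfa are read from several start sites. In RefSeq (build GRCr8) Bdnf has 11 transcripts and Vegfa and Ntrk2 14 each. The RefSeq promoter table held 6 windows for Bdnf and 2 for Vegfa. It held none for Ntrk2. The 250 bases before 3 of these starts, chosen for their motif matches, are shown as examples of the separate start regions that 1 count adds together. The genome build of the counts is not given in the sources used here, so the coordinates are those of the sequences only. Capitals mark TGACG (a core of the cAMP response element, to which CREB binds), ACGTG (a core shared by E boxes and hypoxia response elements) and GGGCGG (the GC box, to which Sp1 binds), each on either strand.
Bdnf, start site 1, chr3:116619383-116619632, plus strand: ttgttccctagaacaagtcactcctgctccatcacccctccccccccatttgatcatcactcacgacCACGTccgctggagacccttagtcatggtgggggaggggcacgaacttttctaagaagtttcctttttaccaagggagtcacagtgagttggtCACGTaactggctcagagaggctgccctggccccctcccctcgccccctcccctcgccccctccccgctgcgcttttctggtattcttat
Bdnf, start site 4, chr3:116637608-116637857, plus strand: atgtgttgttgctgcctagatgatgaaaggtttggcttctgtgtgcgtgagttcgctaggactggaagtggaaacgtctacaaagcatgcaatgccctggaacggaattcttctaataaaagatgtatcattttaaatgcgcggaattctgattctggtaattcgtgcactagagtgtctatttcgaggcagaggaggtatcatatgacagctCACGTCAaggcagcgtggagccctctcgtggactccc
Vegfa, start site 1, chr9:22452604-22452853, plus strand: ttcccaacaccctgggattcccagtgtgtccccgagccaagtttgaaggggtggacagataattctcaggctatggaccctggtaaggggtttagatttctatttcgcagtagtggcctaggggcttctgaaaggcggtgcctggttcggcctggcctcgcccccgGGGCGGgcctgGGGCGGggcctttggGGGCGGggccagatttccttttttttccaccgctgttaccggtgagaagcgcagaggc

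The window of Bdnf start site 1 held 2 ACGTG matches, and that of start site 4 held 1 TGACG match that overlaps 1 ACGTG match, beginning 35 and 37 bases before the start. The window of Vegfa start site 1 held 3 GGGCGG matches and none of the other motifs. Of the windows not shown, that of Bdnf start site 3 held 2 GGGCGG matches, and those of Bdnf start sites 2, 5 and 6 and of Vegfa start site 2 held no match. Over all 33465 windows of 250 bases in the table, 18.2% held TGACG, 16.6% held ACGTG and 30.5% held GGGCGG on either strand. These matches describe the letters only. The counts do not tell which Bdnf or Vegfa start site the reads came from, nor whether Ntrk2 reads came from the full-length or the truncated receptor.

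The libraries held between 16347636 and 27377086 reads assigned to genes, and 30.7% to 32.9% of the tabulated reads fell outside annotated genes. IGF1 replicate 1 stood apart over the whole transcriptome. Across genes, its Spearman correlations with the remaining 7 averaged 0.986, where those 7 had averages of 0.991 to 0.994. It also had the most gene reads and the highest share outside genes. The comparisons and correlations below are therefore given with and without it. The quasi-likelihood F test of edgeR called 0 of the 14522 IDs (0%) at an adjusted p of 0.05. An unadjusted p under 0.05 was found for 958 (6.6%), and Bdnf, Ntrk2 and Vegfa were not among them. Leaving out IGF1 replicate 1 gave 922 (6.35%), with Bdnf and Vegfa among them. DESeq2 called 13 IDs and edgeR's likelihood ratio test 11. Without gene names, the Igf1 transcript, the wider neurotrophin and VEGF pathway lists and hippocampal or cell type markers were not analysed here. The tissue label is therefore not checked against markers.

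The Bdnf transcript lay above the DsRed range in 3 IGF1 rats and far below it in the remaining one. Its CPM (read counts scaled by library size, with TMM factors) were 29.2, 48.5, 47.7 and 45.3 in IGF1 replicates 1 to 4. The DsRed rats, replicates 1 to 4, had 41.9, 41.4, 38.2 and 41.8 CPM. The DsRed rats were close together, and the lowest and the highest values of all 8 rats were both in the IGF1 group. The group means were 42.7 ± 9.10 CPM for IGF1 and 40.8 ± 1.78 CPM for DsRed (SD, n = 4 each). The fitted log2 fold change was 0.06 (SE 0.14), and its 95% interval ran from -0.25 to 0.38, or 0.838 to 1.30 as a fold. Adjusted over all IDs, the quasi-likelihood p of edgeR was 0.939, and 61.0% of the tested IDs had a larger absolute fold change. The means differed by less than the SD of the IGF1 rats, and by about the SD of the DsRed rats.

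**Figure D1:**
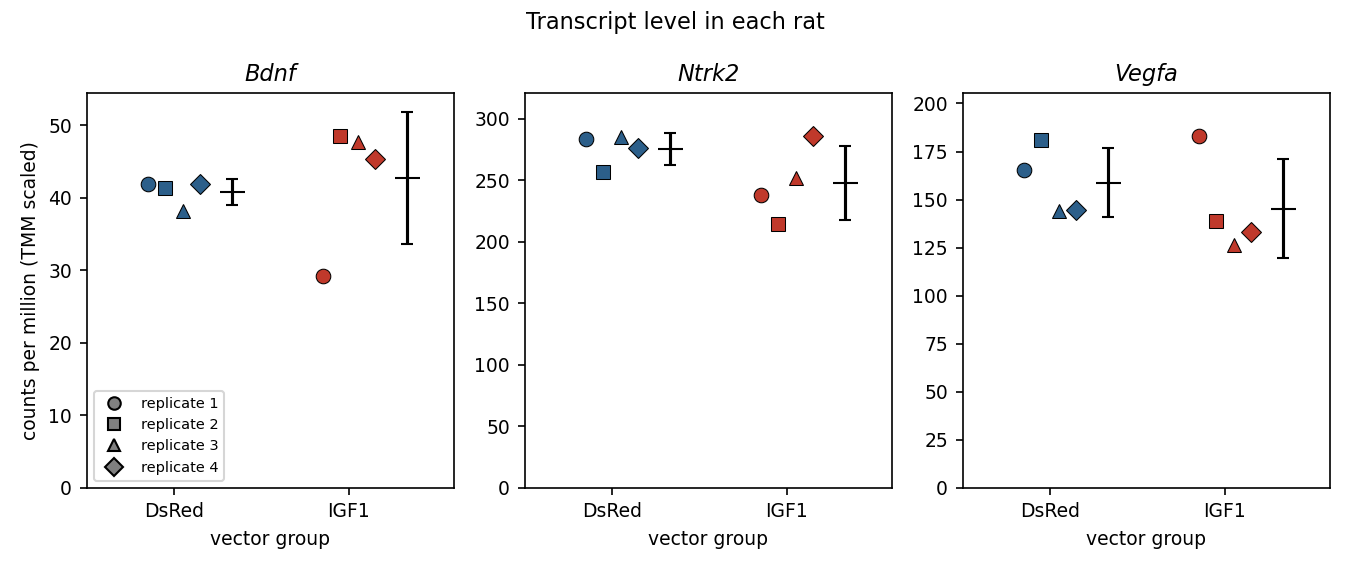
TMM-scaled CPM of Bdnf, Ntrk2 and Vegfa (vertical axes from 0) in each DsRed (blue) and IGF1 (red) rat, with the replicate number as the symbol and black bars for the group mean ± SD (n = 4). IGF1 replicate 1 has the lowest Bdnf, 29.2 CPM, and the highest Vegfa, 183 CPM, of the 8 rats.

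Without IGF1 replicate 1, the other 3 IGF1 rats all lay above the 4 DsRed rats in Bdnf, at 47.2 ± 1.73 CPM (SD, n = 3) against 40.8 ± 1.69 CPM (SD, n = 4). The log2 fold change was then 0.21 (SE 0.055), a 1.16-fold difference with a 95% interval of 0.089 to 0.33 in log2. The quasi-likelihood p of edgeR was 0.00326 unadjusted and 0.737 adjusted, so the call did not change. IGF1 replicate 1 was the only IGF1 rat not above the DsRed range in Bdnf. The lack of overlap thus follows from leaving it out, and the fit without it is no support for a difference. In that fit 3.33% of all IDs were higher in IGF1 at an unadjusted p under 0.05, and in 4.76% the groups did not overlap with IGF1 higher. Leaving out any other library gave Bdnf a log2 fold change between -0.0063 and 0.073.

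The low Bdnf value of IGF1 replicate 1 rested on 800 reads, for which counting error is a few percent: over the 8 libraries Bdnf had 675 to 1075 reads, a counting error of 3.05% to 3.85%. The level in this rat was 0.52 log2 units under the median of the other 7. In the same library 13.4% of the tested IDs lay as far from the median of the other 7, in either direction. Between the rats of a group the spread was 21.3% of the mean for IGF1 and 4.35% for DsRed. The biological coefficient of variation, which is edgeR's estimate of spread beyond counting, was 14.3% for Bdnf, 9.30% for Ntrk2 and 12.6% for Vegfa, against 11.8% over all IDs.

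Ntrk2, the receptor for BDNF, was lower in 3 IGF1 rats than in any DsRed rat, while the remaining IGF1 rat was level with the highest DsRed rats. Its CPM in IGF1 replicates 1 to 4 were 238, 214, 252 and 286. The DsRed rats, replicates 1 to 4, had 284, 256, 286 and 276. Here it was IGF1 replicate 4, and not replicate 1, that made the groups overlap. The means were 248 ± 30.2 CPM for IGF1 and 276 ± 13.4 CPM for DsRed (SD, n = 4 each). The log2 fold change was -0.15 (SE 0.084) with a 95% interval of -0.34 to 0.033, or 0.790 to 1.02 as a fold. Adjusted over all IDs, the quasi-likelihood p of edgeR was 0.743, and 26.3% of the tested IDs had a larger absolute fold change.

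The fitted Ntrk2 value was below 0 in every fit that left out 1 library, from -0.23 to -0.090 in log2. Without IGF1 replicate 4, the rat through which the groups overlapped, it was -0.23 (SE 0.069). The quasi-likelihood p of edgeR was then 0.00931 unadjusted and 0.503 adjusted. That rat is singled out here by its Ntrk2 level, so this fit describes its weight and is no support for a difference. Without IGF1 replicate 1 the value was -0.13, and the same test gave 0.826 after adjustment. Ntrk2 had 3932 to 6661 reads per library, a counting error of at most 1.59%. In GRCr8 its locus overlaps 7 long noncoding RNA genes, and since the strand setting of the counting is not given, reads from these may be part of its count or lost from it. Bdnf and Vegfa overlap no other RefSeq gene there.

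**Figure D2:**
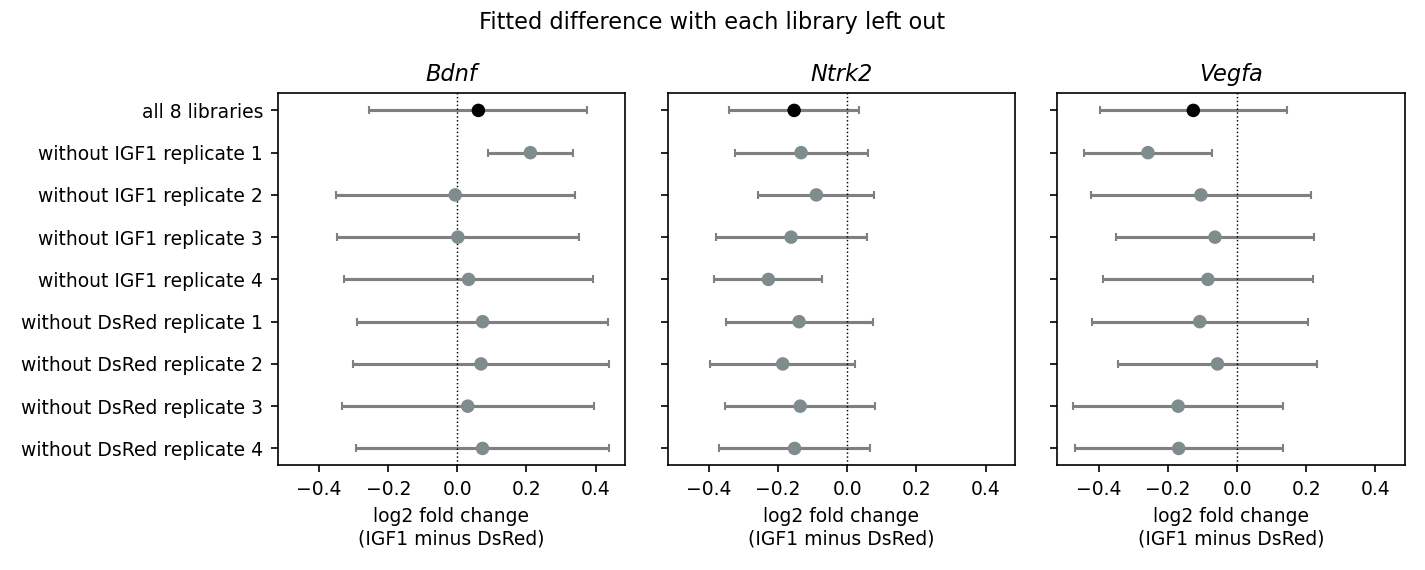
Log2 fold change (IGF1 minus DsRed, horizontal axes) of Bdnf, Ntrk2 and Vegfa from edgeR's quasi-likelihood fit with all 8 libraries (black) and with each library left out (grey), with 95% intervals. The interval lies clear of 0 without IGF1 replicate 1 for Bdnf and Vegfa and without IGF1 replicate 4 for Ntrk2, and none of these passes adjustment over all IDs.

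Vegfa showed the reverse of Bdnf: 3 IGF1 rats lay below every DsRed rat and IGF1 replicate 1 was level with the highest of them. The CPM of IGF1 replicates 1 to 4 were 183, 139, 126 and 133. Those of the DsRed rats, replicates 1 to 4, were 165, 181, 144 and 145. The groups overlapped through IGF1 replicate 1 alone. The means were 145 ± 25.8 CPM for IGF1 and 159 ± 17.8 CPM for DsRed (SD, n = 4 each). The log2 fold change was -0.13 (SE 0.12) with a 95% interval of -0.40 to 0.14, or 0.759 to 1.11 as a fold. Adjusted over all IDs, the quasi-likelihood p of edgeR was 0.814, and 33.1% of the tested IDs had a larger absolute fold change.

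Without IGF1 replicate 1 Vegfa was 133 ± 6.60 CPM over 3 IGF1 rats (SD, n = 3), against 159 ± 17.9 CPM over the DsRed rats (SD, n = 4). The log2 fold change was -0.26 (SE 0.083) with a 95% interval of -0.44 to -0.073, a fold of 0.836. The quasi-likelihood p of edgeR was 0.0110 unadjusted and 0.744 adjusted. Since the groups had overlapped through that rat alone, the lack of overlap follows from leaving it out. The fit without it is no support for a difference. In that fit 3.01% of all IDs were lower in IGF1 at an unadjusted p under 0.05, and in 3.49% the groups did not overlap with IGF1 lower. Vegfa varied among the DsRed rats too, where DsRed replicates 1 and 2 were higher than replicates 3 and 4. Without DsRed replicate 2, the highest of that group, the log2 fold change was -0.057, and without IGF1 replicate 3, the lowest rat, -0.064. In both the adjusted p, from the same edgeR test, was at least 0.911.

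With all 8 libraries, the groups overlapped for each of the 3 genes, whereas 4.71% of all tested IDs had groups that did not overlap. When the fit included as covariate the share of reads outside genes, which is highest in IGF1 replicate 1, the log2 fold changes were 0.24 for Bdnf, -0.12 for Ntrk2 and -0.28 for Vegfa. The quasi-likelihood p of edgeR was 0.0916, 0.249 and 0.0496 unadjusted, in the same order, and 0.999 adjusted for each. It called 0 IDs at an adjusted p of 0.05, and how many were under 0.05 unadjusted was not counted. Bdnf and Vegfa moved as they did without IGF1 replicate 1, so this fit is no separate support for a difference. The part of the share of reads outside genes in the results was not otherwise tested. In bulk tissue, fewer cells of a type and less RNA per cell cannot be told apart.

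Ratios of 2 genes within a library do not depend on how libraries are scaled. They were taken as log2 ratios of read counts. These ratios include gene length and say nothing on which gene is more abundant. For Vegfa over Bdnf the log2 ratio was 2.65, 1.52, 1.40 and 1.55 in IGF1 replicates 1 to 4. The DsRed rats, replicates 1 to 4, had 1.98, 2.13, 1.92 and 1.79. All DsRed rats lay between IGF1 replicate 1 and the other 3 IGF1 rats. The mean difference of -0.17 (1.78 ± 0.58 against 1.95 ± 0.14, SD, n = 4 each) gave p = 0.657 by two-sided exact permutation, or 0.943 after Benjamini-Hochberg adjustment over the 3 ratios. The difference of group medians was larger, at -0.41, with an exact permutation p of 0.143. Without IGF1 replicate 1 the IGF1 mean was 1.49 ± 0.078 (SD, n = 3) and the difference -0.46. Its exact permutation p was 0.0286, the smallest that 3 libraries against 4 allow, and 0.0857 after adjustment over the 3 ratios. IGF1 replicate 1 was the only IGF1 rat not below the DsRed range in this ratio. That p was therefore fixed once this rat was left out, and is no support for a difference.

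**Figure D3:**
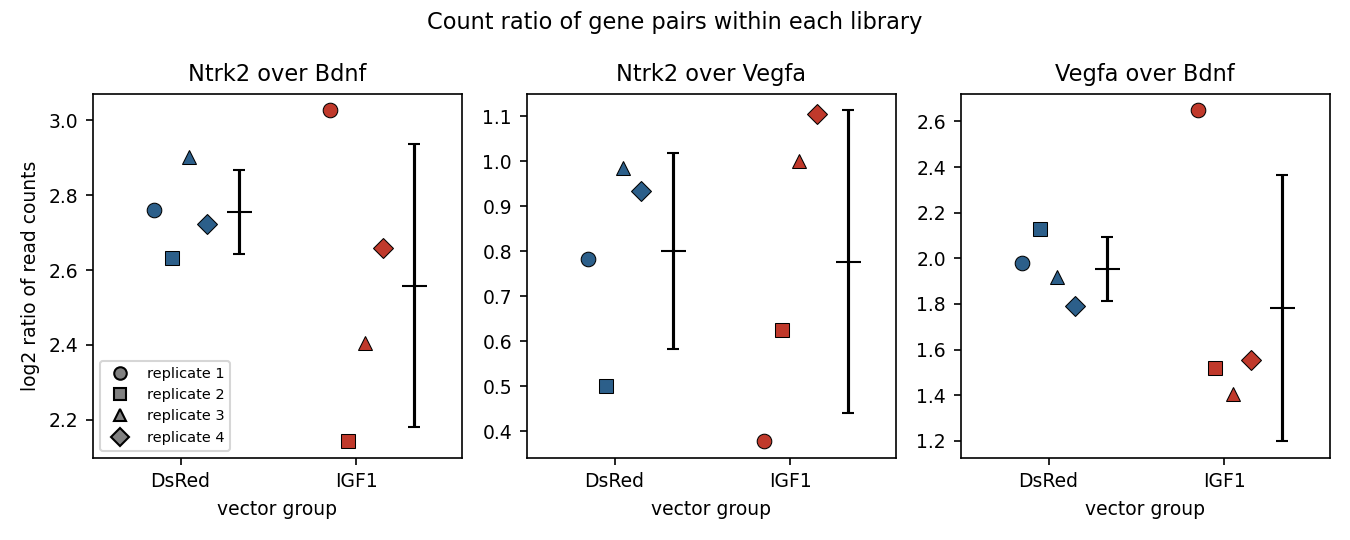
Log2 ratio of read counts (vertical axes, each with its own range) for Ntrk2 over Bdnf, Ntrk2 over Vegfa and Vegfa over Bdnf in each DsRed (blue) and IGF1 (red) library, with replicate symbols and the group mean ± SD (black, n = 4). For Vegfa over Bdnf, IGF1 replicate 1 is at 2.65 and the other IGF1 libraries are at 1.40 to 1.55, with the DsRed libraries between.

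For the receptor over its ligand, Ntrk2 over Bdnf, the log2 ratio was 3.03, 2.14, 2.40 and 2.66 in IGF1 replicates 1 to 4. The DsRed rats, replicates 1 to 4, had 2.76, 2.63, 2.90 and 2.72. The IGF1 rats took both the highest and the lowest place. The difference of -0.20 gave p = 0.400 by two-sided exact permutation, and 0.943 once adjusted over the 3 ratios. Without IGF1 replicate 1 it was -0.35 with an exact permutation p of 0.0571, and 0.0857 after adjustment. That rat had the highest ratio of all, so leaving it out lowers the IGF1 mean, and this comparison is no support for a difference. The third ratio, Ntrk2 over Vegfa, ran from 0.38 to 1.11 in the IGF1 group and from 0.50 to 0.99 in the DsRed group. Its difference of -0.024 had an exact permutation p of 0.943, and without IGF1 replicate 1 it was 0.11 with an exact p of 0.514.

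Over the 8 rats Bdnf and Vegfa had a negative correlation that did not pass adjustment. Pearson's r of their log2 CPM was -0.72 with an exact permutation p of 0.0297, and Spearman's rho was -0.76 with an exact permutation p of 0.0368. After Benjamini-Hochberg adjustment over the 3 gene pairs these were 0.0892 and 0.110. Without the 2 rats farthest from the Bdnf median, IGF1 replicates 1 and 2, r was -0.56 with an exact permutation p of 0.236 over 6 rats. Leaving out IGF1 replicate 1 alone also gave -0.56, with an exact permutation p of 0.204 (0.307 after adjustment), and leaving out IGF1 replicate 2 alone gave -0.70. The value thus moved with IGF1 replicate 1 and kept its sign. Without that rat, however, every IGF1 rat was higher in Bdnf and lower in Vegfa than any DsRed rat. The r without it therefore mixes the difference between groups with any relation within them. With group means removed, r over all 8 rats was -0.74, with an exact permutation p of 0.0393 (0.118 after adjustment). That value includes IGF1 replicate 1. Without DsRed replicate 3, r was -0.76, with an exact permutation p of 0.0357 after adjustment. Of 11 alternatives for this pair, only this 1 was under 0.05 after adjustment. Within the groups, r was -0.96 over the 4 IGF1 rats and 0.47 over the 4 DsRed rats, given as a description. The IGF1 value includes IGF1 replicate 1, at 4.87 in Bdnf against 5.51 to 5.60 log2 CPM in the rest of its group. In Vegfa that rat was at 7.52 against 6.98 to 7.12 log2 CPM. The difference in sign between the groups was not tested and cannot be told apart from the weight of that rat.

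**Figure D4:**
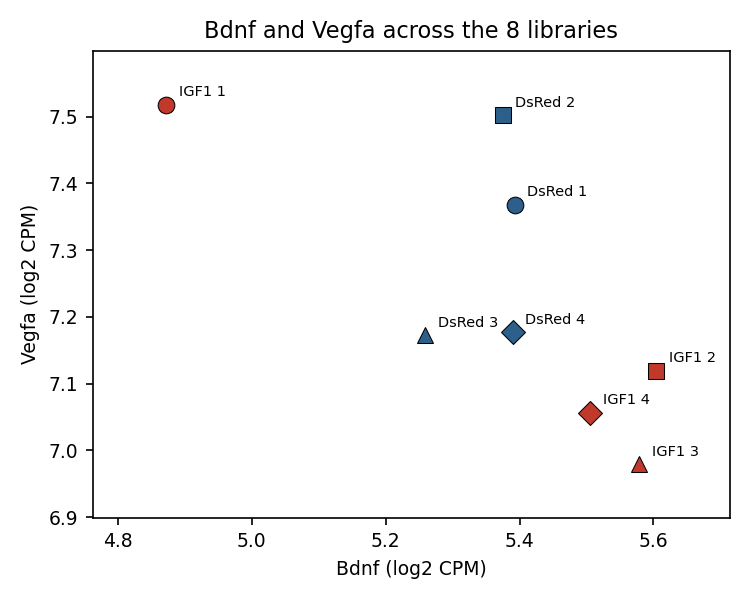
Vegfa against Bdnf, both in log2 CPM, with 1 point per library, IGF1 in red and DsRed in blue. IGF1 replicate 1 lies at the upper left, with Bdnf at 4.87 and Vegfa at 7.52, and IGF1 replicates 2 to 4 lie at the lower right.

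Bdnf and its receptor Ntrk2 showed no such relation over all 8 rats. Pearson's r was -0.011 with an exact permutation p of 0.976, and Spearman's rho -0.17 with an exact permutation p of 0.703. The value turned on single rats: it was -0.68 without IGF1 replicate 1 and 0.49 without IGF1 replicate 2. Without both of these, the rats farthest from the Bdnf median, it was -0.45. For Ntrk2 and Vegfa, r was -0.090 with an exact permutation p of 0.843 and rho -0.17 with an exact permutation p of 0.703. Without IGF1 replicates 1 and 2, the rats farthest from the Ntrk2 median, it was -0.058, and without IGF1 replicate 1 alone it was 0.14. After adjustment over the 3 pairs, the exact p of r was 0.976 and of rho 0.703 for both.

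Over 12696 IDs that averaged at least 1 in log2 CPM, the patterns most like each gene over the 8 libraries were found by Pearson's r of log2 CPM, given as a description. For Bdnf the 2 highest values were 0.97 each, led by ENSRNOG00000014371, whose level was also lowest in IGF1 replicate 1. Without that library, its r with Bdnf was 0.89 and it ranked 47, so the likeness came in part from that rat. For Ntrk2 they were 0.98 and 0.97, led by ENSRNOG00000011504, which had an r of 0.99 and ranked 1 without IGF1 replicate 1. For Vegfa they were 0.97 and 0.96, led by ENSRNOG00000011156, which had 0.97 and ranked 2 without IGF1 replicate 1. The leading IDs were picked as the highest of all those compared. Their ranks without IGF1 replicate 1 reuse the remaining libraries, so they are no separate support for a likeness. An r above 0.9 was found with 64 IDs for Bdnf (0.504% of those compared), 32 for Ntrk2 (0.252%) and 19 for Vegfa (0.150%). An r under -0.9 was found with 58, 16 and 13. When IGF1 replicate 1 was left out, the IDs above 0.9 numbered 35, 97 and 40, and those under -0.9 numbered 37, 34 and 42. A fixed cut on r is easier to pass with fewer libraries, so these counts cannot be compared with those over all 8. The numbers that unrelated IDs would give were not worked out, so none of these counts is read as shared regulation. The files used here do not pair these IDs with gene names.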

How the data were processed

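RNA of 8 hippocampi was sequenced after TruSeq library preparation, per the labels' protocols. The tools were STAR, HTSeq, edgeR and CASAVA 1.8.2, per the submitters' processing notes, which do not give their roles. Build, annotation and strandedness of counting: not given in the sources used here. The authors deposited whole-number read counts per Ensembl ID and a normalised signal for 13595 IDs. That signal is linear: the deposited count over the signal is 1 constant per library, within a relative deviation of 3.05e-09. It served only for alternatives, on log2(value + 1) and log2(value + 0.1) scales. Reads outside genes were left out of library sizes.

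Columns were matched to rats by the labels. Counts of all 28 library pairs differed by more than sampling noise, with a chi-square per degree of freedom of 5.74 to 54.1. IDs were filtered with filterByExpr (minimum count 10, minimum total 15) in edgeR 4.0.16 under R 4.3.3, and scaled by TMM (trimmed mean of M values). Groups were compared with glmQLFit and glmQLFTest, with a model of group alone, two-sided, a threshold of 0.05 and Benjamini-Hochberg adjustment over all tested IDs. Standard errors (SE) are the log2 fold change divided by the root of F. Log2 CPM used a prior count of 2. Ratios and correlations used exact permutation over libraries. The procedure was tested on simulated data. Alternatives used DESeq2 1.42.0, limma 3.58.1, other scalings, filters and edgeR tests, a covariate, a replicate block and leaving out each library. Counts and shares of IDs without IGF1 replicate 1 were added after the data were seen. The genes and lists were chosen with earlier results of these data known. Genes named singly were the 3 members, listed pathway genes where a table pairs symbol and ID (0 IDs matched), and the IDs most like each member, of which the leading one is printed.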

Additional observations from a re-analysis of the deposited data

Results flagged for a closer look

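Among 24 sets of 4 libraries (levels and ratios of the 3 genes, and library measures), 6 held a library set off from its group by more than the 95% critical gap of Dixon's test. By chance, about 1 set in 20 would. The 6 are not independent, since levels were searched in CPM and in log2 CPM and the ratio shares its Bdnf counts with them. IGF1 replicate 1 was apart in Bdnf, at 29.2 CPM against 45.3 to 48.5 CPM in the rest of its group (4.87 against 5.51 to 5.60 in log2 CPM). It was apart in the log2 count ratio of Vegfa over Bdnf, at 2.65 against 1.40 to 1.55. It was also apart in its average Spearman correlation with all remaining libraries, at 0.986 against 0.993. DsRed replicate 3 was apart in Bdnf, at 38.2 CPM against 41.4 to 41.9 CPM (5.26 against 5.37 to 5.39 in log2 CPM), a small gap in a group of close values.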

How the results depend on the processing

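None of the 22 alternatives brought Bdnf, Ntrk2 or Vegfa past an adjusted p of 0.05 in edgeR, DESeq2 or limma. Log2 fold changes were -0.0063 to 0.24 for Bdnf, -0.23 to -0.090 for Ntrk2 and -0.28 to -0.057 for Vegfa, and adjusted p lay between 0.503 and 1. Leaving out 1 library gave -0.0063 to 0.21, -0.23 to -0.090 and -0.26 to -0.057. Bdnf was below 0 only without IGF1 replicate 2. The IDs past the threshold numbered 11 with edgeR's likelihood ratio test, 11 with its exact test, 13 with DESeq2, and 0 to 1 with 1 library left out. With 1 library left out, the ratio differences ran from -0.35 to -0.058 (Ntrk2 over Bdnf), -0.13 to 0.11 (Ntrk2 over Vegfa) and -0.46 to -0.047 (Vegfa over Bdnf). With group medians in place of means the differences were -0.21, -0.046 and -0.41. With 1 library left out, Pearson's r ran from -0.68 to 0.49 (Bdnf and Ntrk2), -0.85 to -0.56 (Bdnf and Vegfa) and -0.42 to 0.14 (Ntrk2 and Vegfa). For Bdnf and Ntrk2 it was 0.044 with group means removed and 0.0057 with library totals only, and for Ntrk2 and Vegfa 0.027 with library totals only. The cause of these changes was not tested.

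In a fit with a replicate block by number, the log2 fold changes were 0.041 for Bdnf, -0.16 for Ntrk2 and -0.14 for Vegfa. edgeR's quasi-likelihood test then called 0 IDs at an adjusted p of 0.05 and had 878 at an unadjusted p under 0.05. Its unadjusted p was 0.771 for Bdnf, 0.0492 for Ntrk2 and 0.156 for Vegfa. The paired ratio differences were -0.20, -0.024 and -0.17, with exact sign-flip permutation p of 0.375, 1 and 0.625, so the block changed no call. Same-numbered libraries deviated together with r of 0.055, 0.13, 0.24 and 0.13. Every IGF1 library correlated best with its own number, but not every DsRed library, and the labels name separate rats, so the numbers were not taken as pairs.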
